A study of Mus musculus with 36 samples.

Results

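Border-associated macrophages are the resident macrophages of the tissues that wrap and enter the brain: the meninges, the spaces around blood vessels and the choroid plexus. They share Cx3cr1, the receptor for fractalkine, with microglia, the macrophages of the brain tissue itself, but carry scavenger receptors and lectins that microglia lack or hold at low levels. The 8 genes described here are widely used to tell them from microglia, and were chosen by name: Mrc1, Cd163, Lyve1, Clec10a, Pf4, Ms4a7, F13a1 and Cbr2. All 8 were found by symbol among the 36172 gene entries of the series.

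The RNA came from the hippocampus of Cx3cr1-NuTRAP mice. In these animals cre recombinase, driven by the Cx3cr1 promoter and switched on by tamoxifen, puts a green fluorescent tag on ribosomes, so that RNA on the ribosomes of tagged cells can be pulled down with an antibody. That method is translating ribosome affinity purification (TRAP), and the input is the cleared homogenate set aside before the pulldown. Every animal carried the cre and the tag, microglia and border-associated macrophages both use the Cx3cr1 promoter, and groups differed in age (6 months, called young, or 22 months, called old) and in whether induction was labelled early or late. The 36 libraries were inputs of 10 young early-induced animals (5 females, 5 males), of 12 old early-induced animals (7 females, 5 males) and of 7 old late-induced animals (5 females, 2 males), and TRAP libraries of the same 7 old late-induced animals. No TRAP library of an animal with early induction was analysed here. Age and induction were compared only in inputs. The ages at induction are not in the labels.

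Library totals lay between 12.9 and 20.4 M estimated counts. Genes of the choroid plexus, an epithelium that lies beside the hippocampus, split the inputs: their summed level was between 53.6 and 203 CPM (counts relative to the total of the library) in 14 inputs and between 1796 and 4268 CPM in 15, a split chosen after seeing the data. The high inputs were 6 of 10 young, 4 of 12 old early and 5 of 7 old late. Meningeal fibroblast genes moved with them, from 168 to 284 CPM in the low inputs and from 329 to 701 CPM in the high ones. CPM values were scaled with TMM factors, which correct for composition, and all levels are in CPM unless another scale is named.

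Among the 8 genes are 4 surface receptors that take up ligands or bind sugars. Mrc1 (gene ID 17533, chr2:14229414-14332023, plus strand) encodes the mannose receptor CD206. Cd163 (93671, chr6:124304651-124330527, plus strand) encodes the receptor that clears haemoglobin bound to haptoglobin. Lyve1 (114332, chr7:110850607-110862953, minus strand) encodes a hyaluronan receptor that lymphatic endothelium also carries. Clec10a (17312, chr11:70166623-70170836, plus strand) encodes a galactose-binding lectin that some dendritic cells also carry. Of the others, Pf4 (56744, chr5:90772435-90773383, plus strand) encodes the chemokine CXCL4, best known from platelets, and Ms4a7 (109225, chr19:11321039-11336146, minus strand) encodes a membrane protein of the MS4A family. F13a1 (74145, chr13:36867178-37050244, minus strand) encodes the A subunit of coagulation factor XIII, and Cbr2 (12409, chr11:120729485-120732021, minus strand) encodes a carbonyl reductase. Coordinates are those of the deposited table, on mm10.

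Promoter sequences, each running from 250 bases before to 50 bases after a start site, were found in the RefSeq table (GRCm38.p6) for 6 of the 8 genes: Mrc1, Pf4, Cd163, Cbr2, F13a1 and Ms4a7, the last 2 genes with 2 start sites each. Those of Mrc1 (chr2:14229164-14229463, plus strand), Pf4 (chr5:90772185-90772484, plus strand), Cbr2 (chr11:120731972-120732271, minus strand) and F13a1 (the window at chr13:37049164-37049463, minus strand) are shown because these were the 4 genes with the most TRAP RNA per kilobase of exon. They are written along the gene's strand, and capitals mark GAGGAA, the core recognised by PU.1, the lineage factor of macrophages and microglia, on either strand (TTCCTC where it lies on the opposite one), and in Cbr2 also the MAF half-site TGCTGAC, which lies on the opposite strand as GTCAGCA.
Mrc1 promoter: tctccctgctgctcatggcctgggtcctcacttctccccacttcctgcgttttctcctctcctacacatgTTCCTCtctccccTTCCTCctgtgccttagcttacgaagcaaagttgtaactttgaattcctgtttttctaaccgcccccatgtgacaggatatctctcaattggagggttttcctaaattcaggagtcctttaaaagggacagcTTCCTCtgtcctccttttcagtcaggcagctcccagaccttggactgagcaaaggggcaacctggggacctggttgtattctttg
Pf4 promoter: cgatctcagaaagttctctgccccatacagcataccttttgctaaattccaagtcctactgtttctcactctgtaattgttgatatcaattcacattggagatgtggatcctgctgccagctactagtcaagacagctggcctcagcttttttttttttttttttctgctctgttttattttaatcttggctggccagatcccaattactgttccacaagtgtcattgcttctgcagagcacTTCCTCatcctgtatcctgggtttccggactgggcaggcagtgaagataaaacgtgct
Cbr2 promoter: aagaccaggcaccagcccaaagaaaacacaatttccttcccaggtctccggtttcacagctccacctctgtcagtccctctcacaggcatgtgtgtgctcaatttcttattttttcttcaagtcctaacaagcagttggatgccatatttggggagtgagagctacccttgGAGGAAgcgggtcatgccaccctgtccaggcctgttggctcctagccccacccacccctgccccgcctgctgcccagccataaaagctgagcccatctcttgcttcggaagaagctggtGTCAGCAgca
F13a1 promoter: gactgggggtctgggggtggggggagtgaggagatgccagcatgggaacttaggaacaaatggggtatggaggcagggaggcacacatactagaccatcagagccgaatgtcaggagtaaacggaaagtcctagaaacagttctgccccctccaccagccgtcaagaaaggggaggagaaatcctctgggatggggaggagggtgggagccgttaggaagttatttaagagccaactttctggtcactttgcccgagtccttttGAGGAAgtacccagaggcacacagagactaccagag
GAGGAA was in 6 of the 8 windows, belonging to 5 genes, against 28.3% of all 32851 promoter windows of that length. In Mrc1 it occurred 3 times, beginning 180, 167 and 35 bases before the start site. The F13a1 window not shown (chr13:37050195-37050494, minus strand) covers the gene start of the deposited table and held GAGGAA 2 times. The F13a1 window shown lies inside the deposited gene, and the rule above chose genes, not start sites. The longer PU.1 motif GAGGAAGT, which contains the core, was in the windows of Pf4 and F13a1 shown above and in 3.20% of all windows. TGCTGAC was in the Cbr2 window alone of the 8, against 4.67% of all, and TATAAA was in none, against 13.6%. These are letter matches in the reference and no measure of binding.

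TRAP against input asked how far the pulldown of tagged ribosomes carried RNA of the 8 genes. Microglia use the Cx3cr1 promoter too, and their part in the TRAP levels of the 8 genes was not tested. All 8 genes were higher in TRAP, each in 7 of 7 animals. The share of all genes that were higher in every animal was not counted. Across all 14596 genes tested, 59.2% passed an adjusted p of 0.05 in either direction and 30.4% were higher (edgeR's quasi-likelihood test with Benjamini-Hochberg adjustment). The 8 genes had log2 fold changes from 3.15 to 3.98, with a median of 3.81. In the inputs of this group Lyve1, Ms4a7 and Clec10a went down to 4 estimated counts, and Pf4 to 8. These genes passed the filter on low counts (minimum count 10) only through their TRAP libraries, so their calls in this test add little. With no filter on low counts all 8 were called higher too. Other scalings moved the share of calls that were higher from 51.4% to 33.98% (upper quartile) or 38.3% (library size only), and the median change of all genes from -0.02 to -0.17 and -0.13, and called all 8 genes higher too.

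Mrc1, the mannose receptor gene, was well measured in both kinds of library. Its inputs in the old late-induced animals ran from 2.21 CPM through a median of 3.12 to 6.52 CPM, and its TRAP libraries from 36.1 through 47.95 to 70.7 CPM. The gap between the groups was wide in all animals, and the ratio of TRAP to input lay between 10.8 and 21.8. The log2 fold change of Mrc1 was 3.81 ± 0.19 (SE, adjusted p = 2.24e-11, edgeR).

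Cd163 had the narrowest spread of ratios among animals. Input levels of Cd163 were between 1.16 and 3.50 CPM with a median of 1.59 CPM, and TRAP levels between 10.9 and 34.7 CPM with a median of 18.6 CPM. Its TRAP to input ratio stayed between 9.41 and 12.9, and animal 6 had the highest Cd163 level in both kinds of library. The log2 fold change of Cd163 was 3.45 ± 0.21 (SE, adjusted p = 3.52e-10, edgeR).

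The hyaluronan receptor Lyve1 was scarce in the tissue, at 0.23 to 0.89 CPM in these inputs (median 0.42 CPM), which is 4 to 15 estimated counts. In TRAP it was at 3.07 to 13.5 CPM (median 6.43 CPM), lowest in animal 5 and highest in animal 6. Its log2 fold change was 3.77 ± 0.36 (SE, adjusted p = 1.16e-07, edgeR). Genes of lymphatic endothelium, which shares Lyve1, were called in both directions: of 4 tested, Flt4 was higher in TRAP by 1.19 (log2), Ccl21a and Pdpn had -0.58 and -0.86 and were lower, and Prox1, at 0.16, was not called. The defining marker Mmrn1 was too scarce to test, at a mean of 0.038 CPM in inputs and 0 in TRAP. Prox1 averaged 34.7 CPM in inputs, far above Mmrn1, so the values of this list need not come from lymphatic endothelium. The part of lymphatic endothelium in Lyve1 was not tested.

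Clec10a had the lowest fold change of the 8. Inputs held 0.23 to 0.90 CPM of Clec10a (median 0.48 CPM) and TRAP libraries 2.50 to 7.94 CPM (median 3.87 CPM). The ratio was uneven, from 5.39 in animal 2 to 22.0 in animal 7. Its log2 fold change was 3.15 ± 0.32 (SE, adjusted p = 2.33e-07, edgeR). Mgl2, a near copy of Clec10a, averaged 3.15 ± 1.83 CPM in TRAP (SD, n = 7) and 0.51 ± 0.31 CPM in the matched inputs (SD, n = 7), and reads common to both genes could be split between them.

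Pf4, the chemokine gene, was at 0.45 to 1.14 CPM in these inputs (median 0.75 CPM) and at 7.18 to 15.8 CPM in TRAP (median 8.80 CPM). Animals 6 and 7 had the highest TRAP levels of Pf4, and animal 5 the lowest. The log2 fold change of Pf4 was 3.80 ± 0.24 (SE, adjusted p = 6.16e-10, edgeR). Platelets also hold Pf4 RNA, and of 5 platelet and megakaryocyte genes tested, 2 were higher in TRAP. Gp9 averaged 0.30 CPM over the 29 inputs and 6.21 CPM in TRAP. Its fold rests on scarce input counts and is not given, and its call adds little. Gp1ba had a log2 fold change of 1.04 ± 0.33 (SE, adjusted p = 0.0112, edgeR), a call lost in females only. Itga2b, Gp1bb and Gp5 had log2 values of -0.23, -0.09 and -0.41 without a call. Ppbp, at a mean of 0.17 CPM in inputs and 0 in TRAP, was too scarce to test, and Gp6 had 0 counts in all 36 libraries. The part of platelet RNA in Pf4 was not tested.

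Ms4a7 was the most variable of the 8 across animals. Its input level was 1.18, 1.53 and 1.73 CPM in animals 3, 4 and 5, and 0.24 to 0.44 CPM in the other 4 animals. In TRAP it ran from 5.29 through 13.98 to 30.5 CPM and was highest in animal 5. Its TRAP to input ratio was between 9.68 and 18.8 in 6 animals and 64.7 in animal 6, whose input held 4 counts. The log2 fold change of Ms4a7 was 3.98 ± 0.35 (SE, adjusted p = 4.48e-08, edgeR).

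F13a1 and Cbr2, the enzyme subunit and the reductase, were both highest in animals 6 and 7. F13a1 rose from 1.56 to 4.16 CPM in input (median 1.63 CPM) to 24.2 to 57.2 CPM in TRAP (median 34.97 CPM), a log2 fold change of 3.96 ± 0.22 (SE, adjusted p = 6.85e-11, edgeR). Cbr2 rose from 0.79 to 2.10 CPM (median 1.08 CPM) to 13.5 to 33.8 CPM (median 14.3 CPM), a log2 fold change of 3.85 ± 0.27 (SE, adjusted p = 1.98e-09, edgeR). For both genes the ratio lay between 9.54 and 21.7 in all 7 animals.

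**Figure D1:**
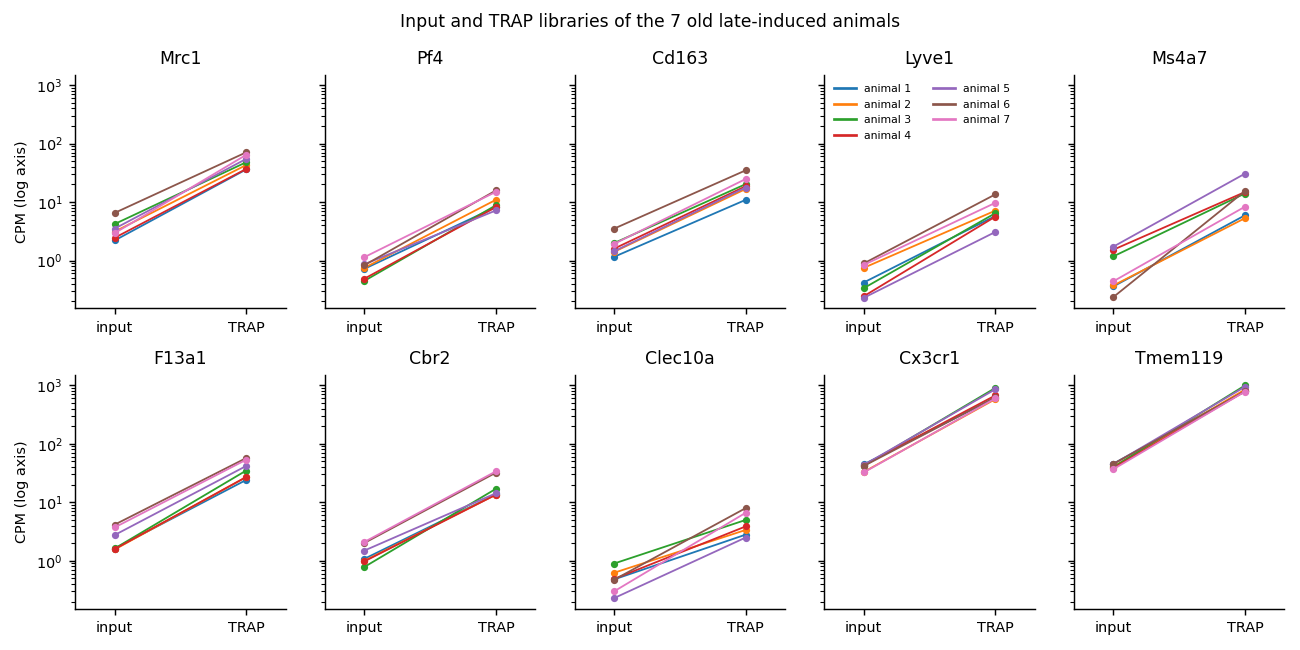
Input and TRAP levels (CPM, log axis) of the 8 border macrophage genes, and of Cx3cr1 and Tmem119 for scale, in the 7 old late-induced animals; each line joins the 2 libraries of 1 animal. Every line rises, and the lines of Ms4a7 and Clec10a differ most in slope.

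Averaged over animals as log2 ratios with 2 counts added, the 8 genes lay between 2.88 ± 0.72 for Clec10a and 3.93 ± 0.20 for F13a1 (SD, n = 7). Every ratio was above 0. An exact two-sided sign-flip p is then 0.0156 for each gene whatever the size of the ratios, the smallest that 7 animals allow. The share of all genes at that floor was not counted, so this p sets the 8 genes apart from no background. Cx3cr1, whose promoter drives the cre, had 4.10 ± 0.23, and the microglia gene Tmem119 had 4.34 ± 0.18 (SD, n = 7). Animal 6 was among the 2 highest TRAP libraries for 8 of the 8 genes and animal 7 for 7. Per kilobase of merged exon in GENCODE M21, Cbr2 at 14.9 ± 6.90 and Pf4 at 14.7 ± 4.81 CPM per kb had the most TRAP RNA and did not differ beyond their spread (SD, n = 7). Mrc1 followed at 7.92 ± 2.10, F13a1 at 5.64 ± 1.97 and Cd163 at 3.75 ± 1.38 CPM per kb. Ms4a7 at 3.02 ± 1.94 and Lyve1 at 2.50 ± 1.15 overlapped in spread, and Clec10a was lowest at 1.58 ± 0.71 CPM per kb, where the annotation includes exons 10426 bases upstream of the gene start in the table. On that scale Cx3cr1 was at 153 ± 29.1 and Tmem119 at 366 ± 37.5 CPM per kb.

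Of 25 other genes known from border-associated macrophages, 13 had enough counts in the 29 inputs to be tested there, and 11 of those 13 were higher in TRAP. Passing the filter over 29 inputs does not mean passing it in the 7 matched inputs, which was not checked. Cd209f, Folr2 and Siglec1, among the 13, averaged 0.58, 0.59 and 0.56 CPM over the 29 inputs, so their calls add little. A further 7 entered the TRAP test through their TRAP libraries alone, so that their passing it adds nothing. Among these, Wfdc17 averaged 0.20 CPM over the 29 inputs and 9.27 CPM in TRAP, the C-type lectin gene Cd209g 0.14 and 3.07 CPM, and the chemokine gene Ccl8 0.13 and 3.36 CPM. Their fitted folds rest on near-absent inputs and are not given. The scavenger receptor Colec12 (-0.005) and Cd38 (-0.29) were not called. Microglia genes were higher in 20 of 20, with a median of 4.28. Marker lists of other cells gave the background: 0 of 15 meningeal fibroblast genes were higher and 11 were lower (median -1.03), and 6 of 10 choroid plexus genes were lower (median -1.87). Endothelial genes were higher in 10 of 10, by a median of 1.07.

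The next question was whether the 8 genes were enriched as far as microglia genes were. As a share of the summed level of the 20 microglia genes, the 8 together stood at 1.23 ± 0.37% in input and 0.945 ± 0.34% in TRAP (SD, n = 7), and the TRAP share was the lower one in 7 of 7 animals. The ratio of each gene, less the median ratio of the microglia genes in the same animal, was tested with limma. That called 7 of the 8 genes lower, as it did 99.0% of all genes. Clec10a was lowest at -1.39 ± 0.25, then Cd163 at -0.89 ± 0.13, Lyve1 at -0.76 ± 0.20, Pf4 at -0.67 ± 0.18, Cbr2 at -0.56 ± 0.15, Mrc1 at -0.45 ± 0.11 and F13a1 at -0.34 ± 0.11 (log2, SE), with adjusted p from 6.3e-08 to 0.00465 in limma. Ms4a7, at -0.40 ± 0.21, had an adjusted p of 0.0636 in limma, and without animal 6 it was called lower (-0.69, adjusted p = 0.000961, limma). An edgeR fit with the summed microglia counts as library size, chosen after seeing the data, called Cd163 and Clec10a lower and no other of the 8. The microglia genes themselves spread from -1.35 to 0.19 in the limma test, 6 of 20 lower and 3 higher. Thus Mrc1, Pf4, Lyve1, F13a1 and Cbr2 were called in limma and not in edgeR, and the cause of that difference was not tested. With Cx3cr1 alone as reference, F13a1 also lost its call in limma (-0.16, adjusted p = 0.242), and the other 6 kept theirs.

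**Figure D2:**
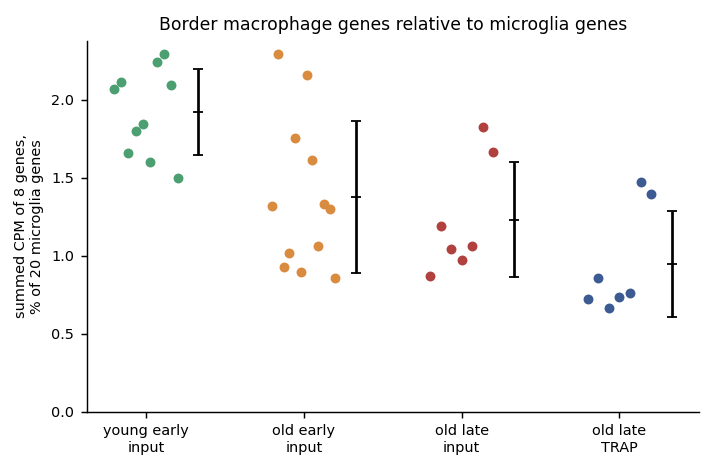
Summed CPM of the 8 border macrophage genes as a percentage of the summed CPM of 20 microglia genes, 1 point per library, with mean and SD beside each group. Young inputs average 1.92%, old early inputs 1.38%, old late inputs 1.23% and old late TRAP libraries 0.945%.

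In the inputs, the age comparisons asked whether the RNA of these genes in whole hippocampus differed between 6 and 22 months. Summed over the 8 genes, the level was 11.8 ± 1.70 CPM in young (SD, n = 10), 11.4 ± 3.77 CPM in old early (SD, n = 12) and 11.8 ± 3.52 CPM in old late inputs (SD, n = 7). The sums thus had nearly the same mean while the spread was wider in both old groups. In whole-tissue RNA, fewer cells of a type and less RNA per cell cannot be told apart. Both contrasts of old with young share the same young inputs, and the groups overlapped for every one of the 8 genes in both. Old late inputs differ from young ones in induction as well as in age, and these cannot be told apart in that contrast.

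Between old early and young inputs, 0 of the 8 genes were called in edgeR, against 25.6% of 14948 genes tested. At an unadjusted p under 0.05 in edgeR the number was also 0, against 5629 of the 14948 genes. DESeq2 and limma voom called 0 of the 8 as well, and 4002 and 3814 of all genes. The log2 values ran from -0.55 ± 0.28 for Lyve1 and -0.32 ± 0.19 for Cd163 to 0.34 ± 0.45 for Ms4a7 and 0.58 ± 0.40 for Clec10a (SE), with adjusted p from 0.16 to 0.953. Mrc1, at -0.12, had a 95% interval of -0.54 to 0.30, and F13a1, at 0.23, one of -0.14 to 0.60. Pf4 at 0.16 and Cbr2 at -0.03 had intervals of -0.54 to 0.86 and -0.63 to 0.57. Of the 13 other border macrophage genes that could be tested, only Lyz2, which microglia also express, was called, higher by 1.83 ± 0.18 (SE, adjusted p = 1.39e-08, edgeR). Microglia genes were higher in 18 of 20, by a median of 0.40.

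Between old late and young inputs, 2 of the 8 genes were called, in opposite directions, where 34.5% of all genes tested were called. Lyve1 was lower in the old late inputs. It ran from 0.47 through a median of 1.02 to 1.58 CPM in young inputs and from 0.23 through 0.42 to 0.89 CPM in old late inputs, with old early inputs between at a median of 0.64 CPM (0.19 to 1.49 CPM). The log2 fold change of Lyve1 was -0.96 ± 0.35 (SE, adjusted p = 0.0314, edgeR).

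Ms4a7 was higher in old late inputs, with a log2 fold change of 1.24 ± 0.48 (SE, adjusted p = 0.0446, edgeR). Young inputs ran from 0 through 0.33 to 0.84 CPM, and old late inputs from 0.24 through 0.44 to 1.73 CPM. The old late group was in 2 clumps: animals 3, 4 and 5 lay above every young and every old early input, and the other 4 lay inside the young range. Old early inputs reached 1.04 CPM, with a median of 0.37 CPM.

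Both calls rested on few counts and single libraries. Lyve1 missed the threshold without old late input 1, 3, 4 or 5 or young input 1, 7 or 9, with an adjusted p of up to 0.0699 in edgeR. Ms4a7 missed it without old late input 3, 4 or 5 or young input 3, 4, 5, 7, 8, 9 or 10, with an adjusted p of up to 0.13 in edgeR. Lyve1 missed it with females only as well (0.0857, edgeR), and Ms4a7 in limma voom (0.0651) and with no filter on low counts (0.0581, edgeR). With only the 2 groups compared, Ms4a7 had too few counts to be tested, so its call needed the old early inputs to pass the filter. Neither gene changed direction in the fits without 1 library, in which Lyve1 stayed between -1.13 and -0.84 and Ms4a7 between 0.99 and 1.49.

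Cd163 lay at the edge of the threshold in the old late inputs. Its median was 2.51 CPM (1.77 to 3.93 CPM) in young and 1.59 CPM (1.16 to 3.50 CPM) in old late inputs. The log2 difference of -0.51 ± 0.22 (SE) had an adjusted p of 0.0697 in edgeR. In limma voom the adjusted p was 0.0375, and with only the 2 groups compared it was 0.0297 in edgeR. Without animal 6, the highest old late input at 3.50 CPM, the adjusted p was 0.00964 in edgeR, and without young input 7 it was 0.0494.

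The other 5 genes were not called in this contrast. Cbr2 had a log2 value of 0.62 ± 0.34, F13a1 0.29 ± 0.22, Pf4 0.29 ± 0.40, Clec10a 0.29 ± 0.47 and Mrc1 -0.11 ± 0.25 (SE), with adjusted p from 0.162 to 0.776 in edgeR. Cbr2 and F13a1 were highest in animals 6 and 7, as in TRAP, at 2.02 and 2.10 CPM for Cbr2 and 4.16 and 3.72 CPM for F13a1. In the wider border macrophage list, Lyz2 was higher by 2.45 ± 0.20 and Ms4a6d, of the same family as Ms4a7, by 0.74 ± 0.23 (SE, adjusted p = 3.03e-10 and 0.0127, edgeR), and 11 of 13 were not called.

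**Figure D3:**
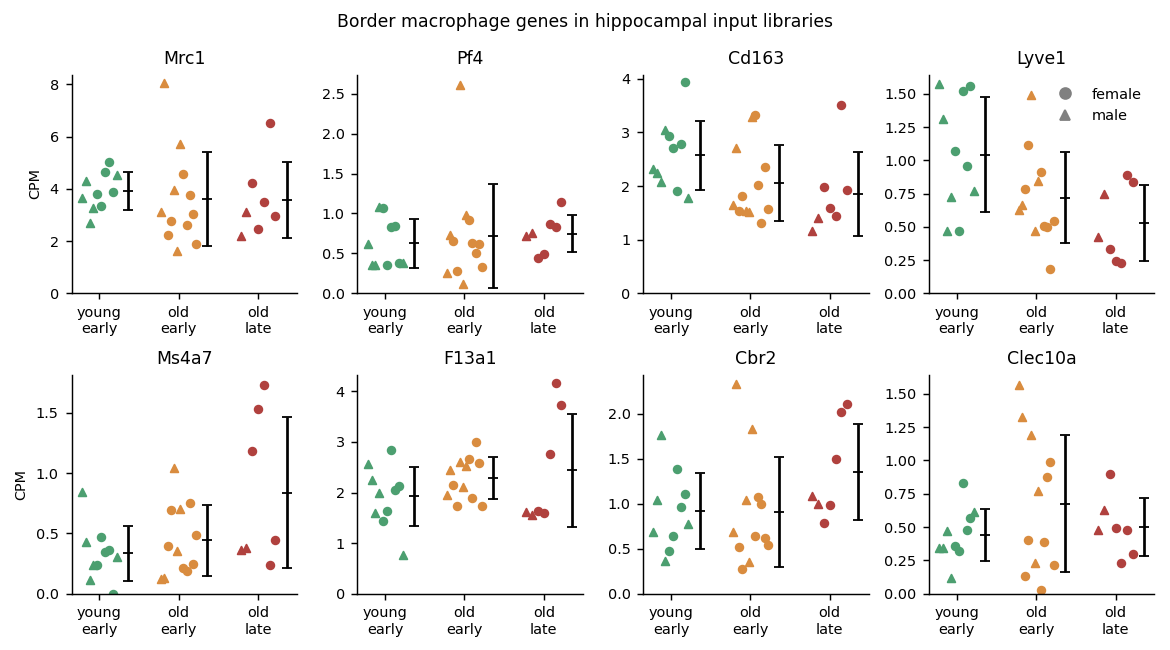
Level (CPM) of each of the 8 genes in the 29 input libraries, by group, with circles for females, triangles for males, and mean and SD beside each group. Groups overlap in every panel, and Ms4a7 in the old late group has 3 libraries at 1.18 to 1.73 CPM and 4 at 0.24 to 0.44 CPM.

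Microglia genes were higher in both old groups than in young inputs. The median was 0.40 (log2) with 18 of 20 called higher for old early, and 0.53 with 20 of 20 for old late, where induction differed too. The 8 genes made up 1.92 ± 0.28% of the microglia sum in young (SD, n = 10), 1.38 ± 0.48% in old early (SD, n = 12) and 1.23 ± 0.37% in old late inputs (SD, n = 7). With the summed counts of the microglia list as library size, a scaling chosen after seeing the data, edgeR called Mrc1, Cd163 and Lyve1 lower in both old groups. Under that scaling 81.9% of all genes were lower in old early and 85.1% in old late inputs, so the count of 3 of 8 is below the background.

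The 3 called genes had lower values against young in old late than in old early inputs, a difference that was not tested. Lyve1 was at -0.99 ± 0.29 in old early and -1.55 ± 0.35 in old late inputs against young (SE, adjusted p = 0.00222 and 0.000132, edgeR). Cd163 was at -0.75 ± 0.19 and -1.14 ± 0.23 (SE, adjusted p = 0.00068 and 3.39e-05, edgeR). Mrc1 was at -0.55 ± 0.21 and -0.75 ± 0.25 (SE, adjusted p = 0.015 and 0.00561, edgeR). These values give the change of each gene less the change of microglia RNA, and microglia RNA is itself higher in both old groups. Clec10a had 0.15 ± 0.40 and -0.34 ± 0.47, and Ms4a7 had -0.09 ± 0.43 and 0.59 ± 0.46 (SE), none of them called. F13a1, at -0.33 ± 0.23 (SE) in old late inputs, was called lower with the fibroblast level as covariate (-0.47, adjusted p = 0.0299, edgeR) and without old late input 7 (-0.51, adjusted p = 0.0354, edgeR). Cbr2, at -0.47 ± 0.31 (SE) in old early inputs, was called lower without old early input 2 (-0.68, adjusted p = 0.0381, edgeR).

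**Figure D4:**
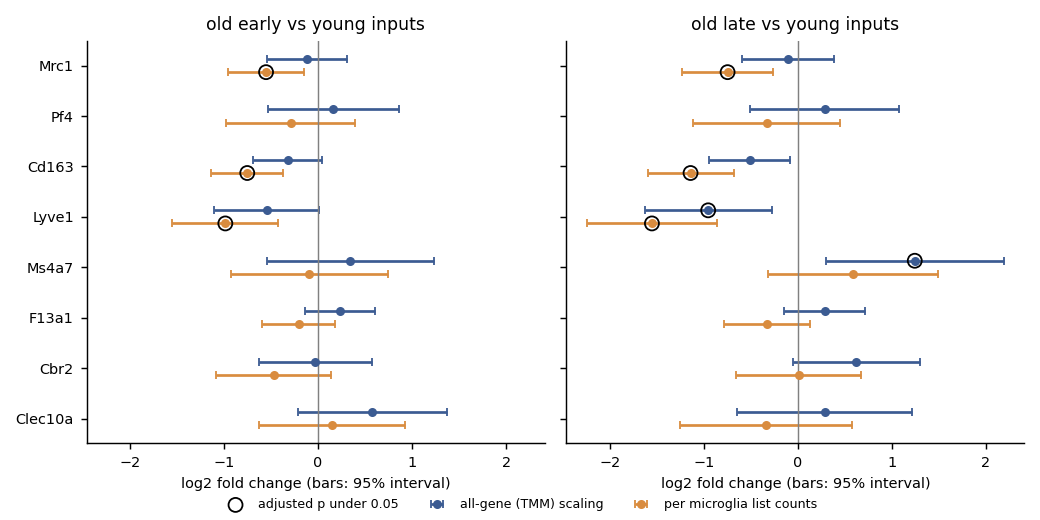
Log2 fold change of each of the 8 genes in old early and old late inputs against young inputs, with 95% intervals, under all-gene scaling and per microglia list counts; rings mark an adjusted p under 0.05 in edgeR. Under all-gene scaling rings are at Lyve1 and Ms4a7 in old late inputs, and per microglia counts at Mrc1, Cd163 and Lyve1 in both.

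Old late and old early inputs, of the same age, did not differ detectably in any of the 8 genes. In edgeR 0 of 8 were called, against 0.0334% of all genes. At an unadjusted p under 0.05 it was 0 of 8, against 1736 of 14948 genes. DESeq2 called 0 of the 8 and 58 of all genes. The largest values were 0.90 ± 0.44 for Ms4a7 and 0.65 ± 0.33 for Cbr2 (SE, adjusted p = 0.43 and 0.449, edgeR), and the lowest was -0.41 ± 0.34 for Lyve1 (SE). For Mrc1, at 0.01, the 95% interval was -0.47 to 0.49. Sex gave 0 of 8 calls in edgeR, against 0.174% of all genes, and 0 in DESeq2, against 64 of all genes. At an unadjusted p under 0.05 in edgeR it gave 0 of 8, against 1632 of 14948 genes. Male minus female values ran from -0.21 ± 0.17 for Cd163 to 0.49 ± 0.35 for Clec10a (log2, SE).

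The summed level of the 8 genes was also set beside the choroid plexus and meningeal RNA of each input. In old early inputs, the 4 libraries with high choroid plexus RNA had sums of 13.2 to 18.4 CPM over the 8 genes, and the other 8 libraries 6.76 to 11.7 CPM, without overlap. Fibroblast sums in the same libraries were 592 to 701 CPM against 179 to 284 CPM. In young inputs the sums overlapped, at 9.93 to 14.3 CPM with high and 9.51 to 13.5 CPM with low choroid plexus RNA. In old late inputs they overlapped too, at 8.05 to 18.6 CPM against 9.36 to 11.5 CPM. Old early input 5 was highest of its group for 3 of the 8 genes, Pf4 at 2.61, Lyve1 at 1.49 and Ms4a7 at 1.04 CPM. It also had the most red blood cell RNA, at 2290 CPM. The part of choroid plexus, meningeal or blood RNA in the levels of the 8 genes was not tested. With the choroid plexus or fibroblast level as covariate, chosen after seeing the data, Lyve1 and Ms4a7 were still called in old late against young inputs and Cd163 was called lower as well, at -0.57 and -0.63 (adjusted p = 0.0404 and 0.0151, edgeR).

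**Figure D5:**
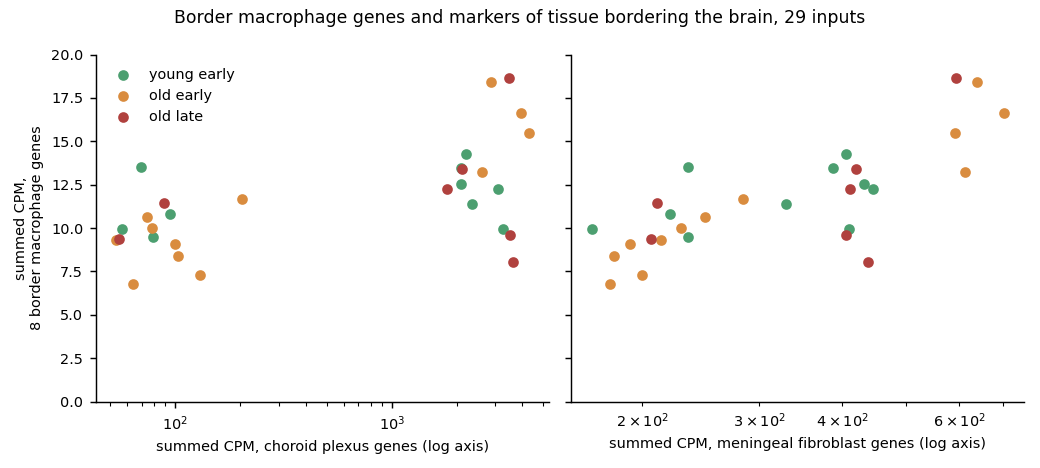
Summed CPM of the 8 border macrophage genes against the summed CPM of choroid plexus genes (left) and meningeal fibroblast genes (right), both on log axes, 1 point per input and 1 colour per group. Choroid plexus RNA is below 203 or above 1796 CPM, and the 4 old early inputs on the high side have sums of 13.2 to 18.4 CPM.

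Across the 29 inputs, with group means removed, the 8 genes were only loosely related to each other. Mrc1 and Cbr2 had the highest Pearson r at 0.58, with Mrc1 and Cd163 also at 0.58, and Ms4a7 and Cd163 the lowest at -0.37. These correlations describe sparse counts from shared libraries. The gene nearest to Mrc1 was Asgr1 (r = 0.79), then Cyp1b1 (0.78). Nearest to F13a1 were Cdh1 (0.77) and Slc22a6 (0.76), the latter on the meningeal fibroblast list. Nearest to Cd163 were Colec12 (0.67), on the border macrophage list but not called in TRAP, and Tnnc1 (0.67). Pf4 was nearest to Cd151 (0.78) and Akt2 (0.76), Ms4a7 to Sgk2 (0.75) and Chst2 (0.71), and Cbr2 to Mfn1 (0.73) and Hic1 (0.73). Lyve1 had Dnajc17 (0.66) and Sumf1 (0.64) as nearest genes, and Clec10a had 1600002H07Rik (0.71) and Tspan14 (0.71).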

How the data were processed

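Polyadenylated RNA was sequenced from 36 hippocampal libraries. The deposited table holds estimated counts per gene, of which 77.4% of the values above 0 are not whole; the submitters' processing notes name mm10 and DESeq2, and the aligner, counter and strand setting are not given in the sources used here. Library totals ranged from 12.9 to 20.4 M, and a gene at 1 CPM rests on few counts. Groups came from the labels, and TRAP and input were matched by the animal number there.

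Estimated counts were rounded and tested with edgeR 4.0.16 in R 4.3.3 (minimum count 10, TMM, quasi-likelihood test, Benjamini-Hochberg adjustment over all genes). TRAP against input was fitted on 14 libraries with sex as covariate and without the animal as block, so the pairing was left out of that fit. Age, induction and sex came from 1 fit of 29 inputs with group and sex. Library numbers in the labels follow group, and the labels do not say what these numbers stand for. An effect tied to the numbers could not be told apart from group. Ratios to microglia used limma 3.58.1 on log2 CPM with a prior count of 2. Alternatives used DESeq2 1.42.0, limma voom, other scalings, filters and covariates, females only and each library left out. The scripts were tested on simulated data.

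Deviations from group means correlated at 0.308 to 0.47 between the 2 libraries of an animal, against a median of -0.0858 between animals, so the animal numbers in the labels pair the samples. The p-values measure only the spread between these animals.

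The 17 gene lists, that of the 8 genes included (176 genes in all, 175 matched), and the tests were chosen with earlier results of these data known. Named besides the 8 were Cx3cr1, Tmem119, up to 3 increases and 3 decreases per contrast among calls of the wider border macrophage list, and per gene the 2 with the highest Pearson r among genes with an average log2 CPM over 0. Other names were chosen after their values were seen.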

Additional observations from a re-analysis of the deposited data

Results flagged for a closer look

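The ratio of TRAP to input of Ms4a7 in animal 6 stood apart from the other 6 animals. Its log2 ratio was 5.42 (5.417 at full precision), against 3.17 to 4.05 in the others. The input of that animal held 4 estimated counts of Ms4a7, or 0.24 CPM. Of 32 sets of values looked at in this way, 1 had a library this far from the rest, and chance flags about 5% of them.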

How the results depend on the processing

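Of 2457 recomputed values, 2308 kept their direction and their side of an adjusted p of 0.05 (counts: within 1.5 times), 27 lost a call, 10 gained one, 39 counts moved further, and 73 changed sign, of which 0 passed the threshold. Low counts limit all 8 genes in inputs. All 8 genes were higher in TRAP under every setting, and with the animal as replicate block 8 of 8 were called, so the pairing changed no call among the 8. Over all genes tested, that block moved the number called from 8640 to 9330. Genes called over the whole table numbered 1198 (old early against young) and 2787 (old late against young) in females only. Of the 8 genes, old late against young called 1 with no filter, 0 with an average log2 CPM over 1, where 3 of them were tested, 1 in females only, and 0 to 3 with 1 library left out. Old late against old early called 58 genes in DESeq2, 182 in females only, 0 with only the 2 groups, 3 and 31 with the choroid plexus and fibroblast covariates, and 0 to 164 with 1 library left out. Male against female called 64 in DESeq2, 12 in early-induced inputs and 17 to 32 with 1 library left out. Against the microglia list, 2 genes were called in edgeR. The cause of these shifts was not tested, apart from fewer samples or genes where a setting removes them.

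Sign changes were all of values without a call. In TRAP, Colec12 was 0.0074 in limma voom, 0.018 with no filter, 0.0057 with no sex term, 0.060 in females only and -0.046 to 0.052 with 1 library left out. In old early against young, Pf4 was -0.093 in voom, -0.30 in females only and -0.24 to 0.30 with 1 library left out, and Cbr2 was 0.013 with the choroid plexus covariate and -0.25 to 0.11 with 1 left out. In old late against young, Mrc1 was -0.32 to 0.0045 with 1 left out. In old late against old early, F13a1 was -0.0064 and Clec10a 0.14 in voom, Mrc1 -0.010 with no sex term and Cd163 0.059 in females only. There the choroid plexus covariate gave Mrc1 -0.14, Pf4 -0.16 and F13a1 -0.12, the fibroblast covariate gave Mrc1 -0.079 and F13a1 -0.087, and leaving 1 library out gave Mrc1 -0.20 to 0.15, Pf4 -0.011 to 0.45 and F13a1 -0.11 to 0.14. In male against female, Mrc1 and Pf4 were -0.020 and -0.072 in voom. The choroid plexus covariate gave Mrc1 -0.016, Pf4 -0.011 and Lyve1 -0.018, and the fibroblast covariate -0.072, -0.057 and -0.035. With 1 library left out, Mrc1 was -0.081 to 0.17, Pf4 -0.18 to 0.30, Lyve1 -0.040 to 0.17 and Ms4a7 -0.35 to 0.025. Relative to microglia, old early Ms4a7 was 0.016 in voom and -0.29 to 0.19 with 1 library left out, and Clec10a -0.16 in voom and -0.021 to 0.33 with 1 left out. Old late Cbr2 was -0.091 with no sex term, -0.14 and -0.23 with the choroid plexus and fibroblast covariates, -0.033 in voom and -0.20 to 0.13 with 1 left out.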
